A study of Mus musculus with 4 samples.

Results

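Leydig cells lie between the tubules of the testis and make testosterone from cholesterol. A list of 7 genes of that route was described across 4 arrays of mouse epididymal fat: Cyp17a1, Hsd3b6, Hsd3b1, Cyp11a1, Hsd17b3, Star and Insl3. The genes were chosen by their log2 readings on these same arrays, with earlier results in view, and each gene was represented by the probe set with the highest mean. A value was available for 6 of the 7, out of 19505 measured genes in all. The platform annotation used here gives no probe set for Insl3, so its level was not analysed here. Each of the 6 had 1 probe set.

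The study profiled RNA from epididymal adipose tissue of male mice on Clariom S Mouse arrays, with 1 array in each of 4 groups. GW-SA received GW4869, an inhibitor of extracellular vesicle release, and had synergist ablation, a surgery that overloads a muscle by removing its helper muscles. GW-Sham received GW4869 and sham surgery, Veh-SA received DMSO as vehicle and had synergist ablation, and Veh-Sham received DMSO and sham surgery. The sources used here do not give strain, age, dose, time after surgery or the number of mice behind each array. The series title asks whether vesicles from overloaded muscle promote lipolysis in fat, so the comparisons of overload with sham, under vehicle and under GW4869, are the ones the layout is built on. No group has a second array, so no difference below has a replicate check, an error or a p-value. The values describe these 4 arrays and not the conditions.

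In steroid-making cells, Star carries cholesterol to the inner mitochondrial membrane, where Cyp11a1 cuts its side chain to give pregnenolone. Enzymes of the Hsd3b family turn pregnenolone into progesterone, Cyp17a1 converts progesterone to androstenedione, and Hsd17b3 makes testosterone from that. Insl3 is a peptide hormone of Leydig cells that acts in testis descent. In the mouse, Hsd3b6 is the isozyme associated with adult Leydig cells and Hsd3b1 is made in the gonads and the adrenal gland.

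Upstream sequences of 3 genes are shown because Hsd3b6 and Hsd3b1 are the 2 paralogs whose readings moved together here, and because Insl3, which has no reading, is the listed gene whose upstream window holds a match to the motif searched. Each is the stretch of 250 bases upstream of the annotated start, from RefSeq on build GRCm38.p6, written 5′ to 3′ on the gene's own strand. Capitals mark matches to CAAGGNC, the half-site of steroidogenic factor 1, on either strand.
Hsd3b6, chr3:98814444-98814693, minus strand: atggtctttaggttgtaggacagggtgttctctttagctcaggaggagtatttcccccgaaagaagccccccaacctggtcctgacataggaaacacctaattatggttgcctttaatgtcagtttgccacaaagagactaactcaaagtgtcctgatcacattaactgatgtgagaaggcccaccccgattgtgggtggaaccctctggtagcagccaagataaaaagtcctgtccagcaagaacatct
Hsd3b1, chr3:98859795-98860044, minus strand: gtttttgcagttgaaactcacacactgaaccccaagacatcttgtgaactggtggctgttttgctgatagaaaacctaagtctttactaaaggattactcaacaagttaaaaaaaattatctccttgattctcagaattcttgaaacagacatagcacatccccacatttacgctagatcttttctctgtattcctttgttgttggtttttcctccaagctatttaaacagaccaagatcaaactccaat
Insl3, chr8:71689002-71689251, plus strand: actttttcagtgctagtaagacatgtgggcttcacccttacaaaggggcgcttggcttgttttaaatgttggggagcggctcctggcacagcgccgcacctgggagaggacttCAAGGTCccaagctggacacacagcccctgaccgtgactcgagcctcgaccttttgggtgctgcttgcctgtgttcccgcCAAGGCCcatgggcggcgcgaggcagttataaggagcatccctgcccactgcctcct

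Hsd3b6 and Hsd3b1 lie next to each other on chromosome 3, with 0 protein-coding genes between them. Their upstream windows were 47.4% identical in a global alignment. The unrelated pair of Hsd3b6 and Hsd17b3 gave 47.3% by the same alignment, so this stretch was about as alike in the paralogs as in genes of different families. Promoter windows were found for 5 of the 7 genes, namely Hsd3b6, Hsd3b1, Cyp11a1, Hsd17b3 and Insl3. CAAGGNC occurred in the Insl3 window only, at 137 to 131 and 57 to 51 bases before the start, and in 15% of 32851 promoter windows of the same length. The 8-base cyclic AMP response element TGACGTCA and the TATA box TATAAA, searched on both strands, had 0 matches in these 5 genes, against 1.55% and 12.4% of all windows. A missing match says only that these letters are not in this window.

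The measured genes fell into 3 kinds. Cyp17a1, Hsd3b6 and Hsd3b1 stood above background on the Veh-Sham array, Hsd3b1 by the least, and within background on the other 3. Cyp11a1 and Hsd17b3 read highest on Veh-Sham but stayed within background there too. Star was within background on every array. Background is given here by 23 antigenomic probes, which match no mouse sequence. Their 95th percentile lay between 6.34 and 6.40 on the deposited log2 scale on the 4 arrays. A floor for low readings was also set at log2 4.67, the 40th percentile of gene means. Of the 6 measured genes, 3 had a mean over this floor, and those 3 passed through the Veh-Sham array alone, so their passing supports nothing.

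**Figure D1:**
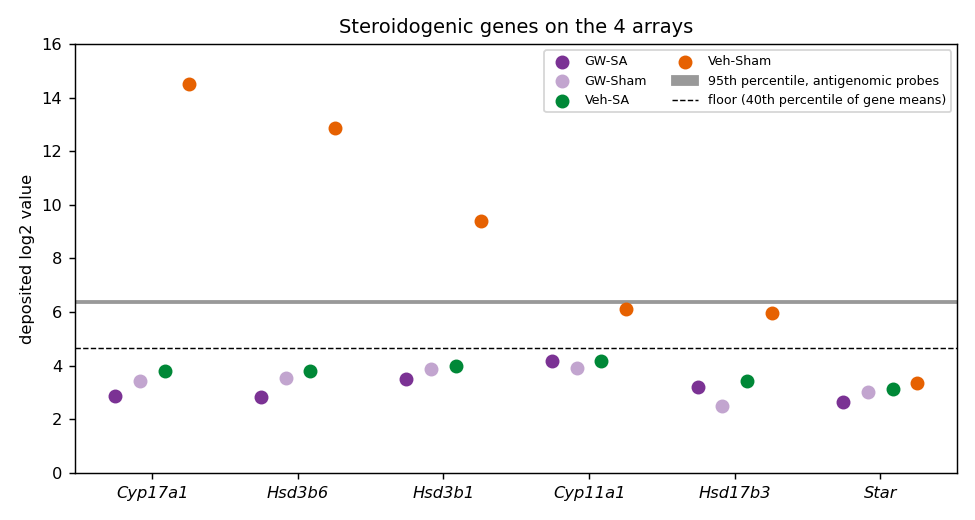
Deposited log2 value (vertical axis) of each of the 6 measured steroidogenic genes on the GW-SA, GW-Sham, Veh-SA and Veh-Sham arrays, 1 point per array. The Veh-Sham points of Cyp17a1, Hsd3b6 and Hsd3b1 (14.49, 12.87 and 9.39) lie over the grey band of antigenomic probes at 6.34 to 6.40, and all other points lie under it.

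Cyp17a1, the enzyme with the hydroxylase and lyase activities that lead to androgens, had log2 values of 2.86 in GW-SA, 3.41 in GW-Sham, 3.81 in Veh-SA and 14.49 in Veh-Sham. The first 3 arrays were under the floor, and only Veh-Sham was high. The difference of Veh-SA from Veh-Sham was -10.68 log2 units as deposited. With the Veh-SA reading replaced by that array's 95th percentile of antigenomic probes, 6.35, the difference was -8.14. This bounds its size from below for the antigenomic probes only. The 95th percentile of the negative control rows on Veh-SA was higher, at 9.19. Of all 19505 genes, Cyp17a1 ranked 9th by how far Veh-Sham stood above the highest of the other 3 arrays. In whole tissue, fewer cells of a type and less RNA per cell cannot be told apart.

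Hsd3b6, the Leydig isozyme of the dehydrogenase step, had log2 values of 2.83 in GW-SA, 3.54 in GW-Sham, 3.79 in Veh-SA and 12.87 in Veh-Sham. It showed the same arrangement, with 1 high array and 3 under the floor. Veh-SA differed from Veh-Sham by -9.08, or by at least -6.52 against antigenomic background, and Hsd3b6 ranked 32nd by the excess of Veh-Sham. Its neighbour Hsd3b1 had log2 values of 3.49 in GW-SA, 3.87 in GW-Sham, 3.99 in Veh-SA and 9.39 in Veh-Sham. The Veh-Sham reading was again the high one, although it lay near the 95th percentile of the negative control rows of that array, 9.01, and above 96.1% of them. Veh-SA differed from Veh-Sham by -5.39, or by at least -3.04 against antigenomic background, and the rank was 298. That bound holds for the antigenomic probes only. The 95th percentile of the negative control rows on Veh-SA was 9.19, close to the Veh-Sham reading. Probe sets of related Hsd3b genes could pick up each other's transcripts, so the split between these isozymes is uncertain. Hsd3b2, Hsd3b3 and Hsd3b5 of the same cluster read 3.55, 4.77 and 3.58 on Veh-Sham, all within antigenomic background.

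Cyp11a1, the side-chain cleavage enzyme that opens the route, had log2 values of 4.19 in GW-SA, 3.93 in GW-Sham, 4.18 in Veh-SA and 6.10 in Veh-Sham. Hsd17b3, the testicular enzyme of the last step, had 3.20 in GW-SA, 2.50 in GW-Sham, 3.42 in Veh-SA and 5.96 in Veh-Sham. For both genes Veh-Sham was the highest array, and for neither did it reach the 6.40 of antigenomic probes on that array. Veh-SA differed from Veh-Sham by -1.92 for Cyp11a1 and by -2.55 for Hsd17b3 as deposited. Both became -0.05 when readings within background were set to the background level, so no fold is given for them. Their Veh-Sham readings lay above 73.1% and 71.2% of negative control rows, against 27.8% to 31.8% (Cyp11a1) and 6.89% to 18.7% (Hsd17b3) on the other arrays.

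Star, the cholesterol carrier, had log2 values of 2.65 in GW-SA, 3.03 in GW-Sham, 3.12 in Veh-SA and 3.37 in Veh-Sham. All 4 readings were under the floor and spanned less than 1 log2 unit. Values under the floor have no order, and Veh-SA differed from Veh-Sham by -0.25, which turned to 0.22 when arrays were centred on the median of all genes. Star is among the genes that define a Leydig cell, so its reading goes against the cell type name given to the list, as do those of Cyp11a1 and Hsd17b3. The list is therefore called here by its steroidogenic genes, and by its leading genes Cyp17a1, Hsd3b6 and Hsd3b1. Whether the Star probe set responds to its transcript was not tested.

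The comparisons repeat 1 array's reading. For overload under vehicle, 5 of 6 genes were at least 1.5-fold lower in Veh-SA than in Veh-Sham and 0 higher, with a median difference of -3.97. Of all measured genes 16.7% were lower by that measure, and the median gene differed by 0.21. For GW4869 in sham mice, 5 of 6 were lower in GW-Sham than in Veh-Sham and 0 higher, with a median of -4.49, against 15.2% of all genes lower and a median gene of 0.19. These 2 comparisons share the Veh-Sham array. The list was drawn up with these readings in view, so nothing is read from either count.

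The differences of GW-Sham from Veh-Sham were -11.08 for Cyp17a1, -9.33 for Hsd3b6 and -5.52 for Hsd3b1. Against antigenomic background they were at least -8.14, -6.52 and -3.04. Hsd17b3 had -3.47, Cyp11a1 -2.17 and Star -0.34, all between readings within background. Both comparisons subtract the same Veh-Sham readings from readings within background.

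For overload under GW4869, the median difference of GW-SA from GW-Sham was -0.38. Hsd17b3 was at least 1.5-fold higher as deposited (0.70) and Hsd3b6 at least 1.5-fold lower (-0.71), against 12.1% of genes higher and 14.7% lower. For GW4869 in overloaded mice, Cyp17a1 and Hsd3b6 were each lower in GW-SA than in Veh-SA by that measure, at -0.96, against 19.4% of genes lower. Every reading behind these counts lay under the floor, and when the floor replaced them all 6 genes had a difference of 0 in both comparisons. The difference between the overload differences, GW4869 minus vehicle, was 10.12 for Cyp17a1, 8.37 for Hsd3b6 and 5.01 for Hsd3b1. It rests on the Veh-Sham array.

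**Figure D2:**
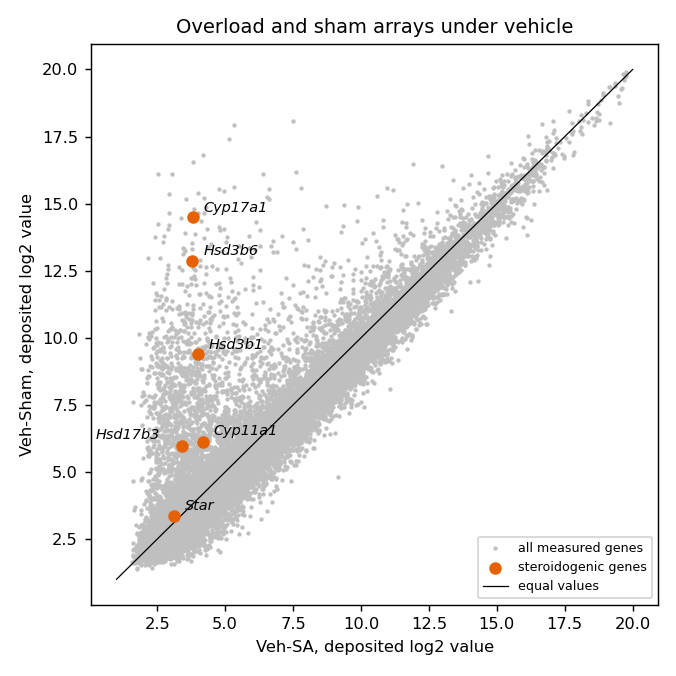
Deposited log2 values of all 19505 measured genes on the Veh-SA array (horizontal) and the Veh-Sham array (vertical), with the 6 steroidogenic genes in orange and a line of equal values. Cyp17a1, Hsd3b6 and Hsd3b1 lie above the line by 10.68, 9.08 and 5.39. They lie in a column of genes low on Veh-SA and high on Veh-Sham, and Star lies close to the line.

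The Veh-Sham array stood apart from the rest for many genes. It exceeded every other array by at least 4 log2 units for 558 genes and by at least 1 log2 unit for 8.51% of all measured genes. The second criterion was met by 5 of the 6 steroidogenic genes, among them Cyp11a1 and Hsd17b3, which were within antigenomic background on Veh-Sham. The list was drawn up with these readings in view, so nothing is read from that count. The markers of mature adipocytes had list medians of 15.86 in GW-SA, 16.54 in GW-Sham, 16.73 in Veh-SA and 16.45 in Veh-Sham, and all 17 measured members were above antigenomic background on every array. Fat transcripts were therefore present on each array, which does not show that fat was the only tissue.

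The medians of the germ cell lists were also high on Veh-Sham alone, and other lists of the male tract were arranged differently. All 14 spermatid markers were measured, and 13 were above antigenomic background on Veh-Sham, against 4 in GW-SA, 1 in GW-Sham and 1 in Veh-SA. Their medians were 4.81, 3.53 and 3.97 in GW-SA, GW-Sham and Veh-SA and 14.04 in Veh-Sham. Prm2, a protamine of sperm chromatin, had 5.33 in Veh-SA and 17.92 in Veh-Sham. Markers of spermatogonia and spermatocytes had medians of 3.66, 3.76 and 3.98 in GW-SA, GW-Sham and Veh-SA and 9.99 in Veh-Sham, with 11 of 12 above antigenomic background there, and Ldhc, the lactate dehydrogenase of germ cells, had 4.19 in Veh-SA and 16.82 in Veh-Sham. Epididymal epithelium markers had a different arrangement, with medians of 13.68 in GW-SA, 3.81 in GW-Sham, 3.43 in Veh-SA and 4.18 in Veh-Sham. The distal epididymis and vas deferens markers had 5.33, 12.87, 3.19 and 13.15 on the same arrays in that order. The 6 steroidogenic genes were within background on GW-SA, where epididymal markers were high, and on GW-Sham, where distal markers were high. Veh-Sham carried epididymal signal too, with 5 of 15 epididymal markers above antigenomic background. Cuzd1, Adam7, Lcn5 and Lcn12 read 18.09, 14.64, 14.22 and 8.85 there, and Rnase9, named after its values were seen, read 13.43 on Veh-Sham and 6.63 to 6.69 on the other arrays. The part of testis, epididymis or vas deferens tissue in the Veh-Sham readings was not tested.

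**Figure D3:**
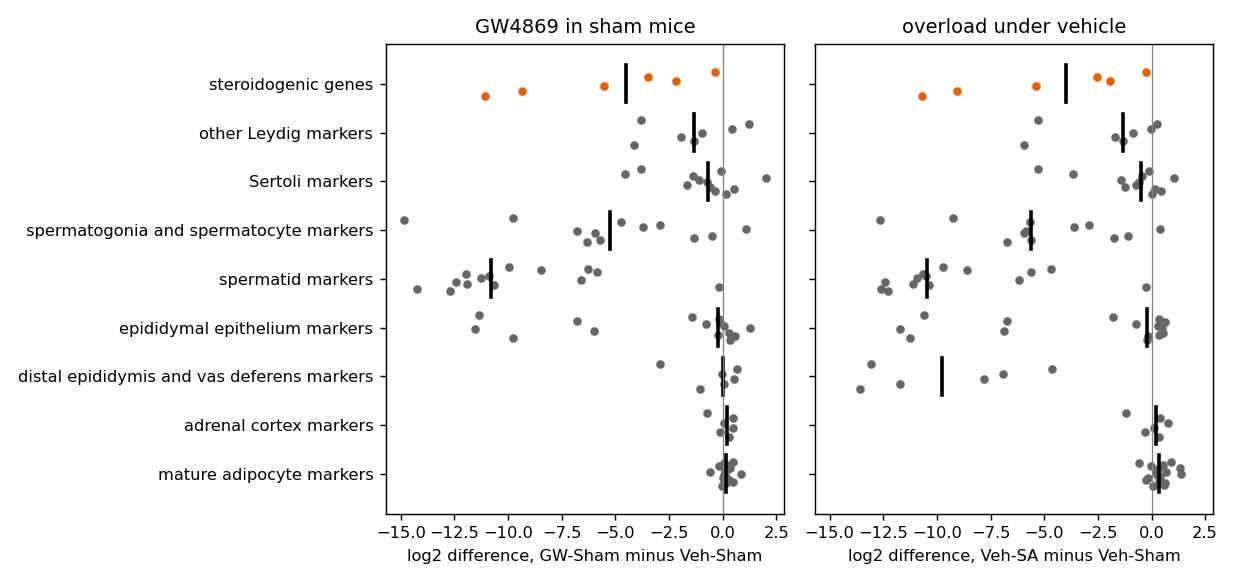
Log2 differences of GW-Sham from Veh-Sham (left panel) and of Veh-SA from Veh-Sham (right panel) for the genes of 9 lists, 1 point per gene, with a black bar at each list's median. The steroidogenic genes (orange, medians -4.49 and -3.97) spread from near 0 to below -10, the spermatid markers have medians of -10.78 and -10.45, and the adrenal cortex markers have medians of 0.18 and 0.23.

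Of the other Leydig markers, 7 of 9 were measured, and 4 of them were above antigenomic background on Veh-Sham. Fabp3, a fatty acid carrier also made in heart and muscle, had log2 values of 5.14 in GW-SA, 6.68 in GW-Sham, 4.90 in Veh-SA and 10.83 in Veh-Sham. Inha, the inhibin alpha subunit of Sertoli and Leydig cells, had 4.74, 4.52, 3.03 and 8.33 on these arrays. Both genes were highest on Veh-Sham. Against antigenomic background, the difference of Veh-SA from Veh-Sham was at least -4.48 for Fabp3 and at least -1.99 for Inha. The Veh-Sham reading of Inha lay under the 95th percentile of negative control rows of that array, 9.01, and above 92.8% of them. The kallikreins Klk1b21, Klk1b24 and Klk1b27 read 4.27, 4.91 and 3.88 on Veh-Sham, all within background. Vcam1 and Sult1e1, which fat also expresses, had 7.58 and 10.87 on Veh-Sham and were not highest there. In all, 5 of the 7 were at least 1.5-fold lower in Veh-SA than in Veh-Sham, against 16.7% of all genes, with a median of -1.35, and Fabp3 and Inha were so also against antigenomic background.

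Sertoli cells nurse germ cells inside the tubules. All 12 of their markers were measured, with medians of 3.36 in GW-SA, 3.18 in GW-Sham, 3.56 in Veh-SA and 5.04 in Veh-Sham. On Veh-Sham 3 were above antigenomic background, Inha, Tsx and Inhbb. All of these lay under the 95th percentile of negative control rows of that array, 9.01. Tsx had 4.05 in Veh-SA and 7.72 in Veh-Sham, while Inhbb, which adipocytes also make, stood between 7.63 and 7.88 on all arrays. Amh, named after its values were seen, read 2.55 on Veh-Sham.

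The adrenal gland is another source of Star, Cyp11a1 and Hsd3b1. The enzymes that make corticoids and mark its cortex were within antigenomic background on every array, with Cyp11b1 at 3.09 to 3.44, Cyp11b2 at 1.61 to 1.90 and Cyp21a1 at 4.00 to 4.47. Mc2r, the corticotropin receptor, and its partner Mrap are made by adipocytes as well, and read 12.18 and 13.44 on Veh-Sham and between 12.19 and 13.93 on the others.

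Regulators of steroidogenic genes were read at low and at high levels. Nr5a1, which encodes steroidogenic factor 1, had log2 values of 4.05 in GW-SA, 4.08 in GW-Sham, 3.63 in Veh-SA and 4.81 in Veh-Sham. Its antagonist Nr0b1 had 2.44, 2.66, 3.34 and 4.87 on the same arrays, and Gata4 had 4.40, 3.58, 3.20 and 4.24. All of these readings lay within antigenomic background. Gata6, which is also made outside the gonad, had 6.76, 8.03, 6.92 and 6.45, above antigenomic background on every array. Nr2f2, a nuclear receptor of stromal cells, had 11.38, 11.75, 11.88 and 11.76, and the orphan receptor Nr4a1 had 6.86, 6.25, 5.83 and 5.37. Only the GW-SA reading of Nr4a1 was above antigenomic background. Lhcgr, the receptor for luteinizing hormone, was not analysed here. Of 11 measured regulators, 3 were at least 1.5-fold lower in Veh-SA than in Veh-Sham and 2 higher, against 16.7% and 27.2% of all genes, with a median of 0.31. The 3 lower ones were Nr5a1, Nr0b1 and Gata4, each between readings within background. With all-gene centring 8 were higher and 2 lower.

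Genes of the relaxin family, to which Insl3 belongs, were mostly within background. Insl6, a relative made by male germ cells, had log2 values of 6.73 in GW-SA, 6.42 in GW-Sham, 6.43 in Veh-SA and 8.60 in Veh-Sham. It was the 1 of 8 measured members above antigenomic background on Veh-Sham. Its reading there lay under the 95th percentile of negative control rows of that array, 9.01. Rxfp2, the receptor for Insl3, read between 2.51 and 3.31 on all arrays.

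Other genes of the steroid pathway supply cholesterol, pass electrons to the enzymes or alter steroids in many tissues, and 43 of 57 were measured. In Veh-SA, 18 of the 43 were at least 1.5-fold higher than in Veh-Sham, and 5 were lower, against 27.2% and 16.7% of all genes. With readings under the antigenomic level set to it, 15 were higher and 2 lower. The median difference of the 43 as deposited was 0.35, but 0.83 with arrays centred on all genes. It was 0.07 when centred on adipocyte markers, where 6 were higher and 8 lower. Tspo, a mitochondrial membrane protein long linked to cholesterol transport, had 13.45 in Veh-SA and 11.75 in Veh-Sham, a difference of 1.70 that stayed between 1.42 and 2.18 under the other scalings. Npc2, which moves cholesterol out of lysosomes, was lower in Veh-SA, at 11.85 against 12.75 in Veh-Sham. That difference was -0.90 as deposited but -0.43 with all-gene centring, under 1.5-fold. Fdx1, the ferredoxin that feeds electrons to Cyp11a1, had 10.02 in GW-SA, 9.94 in GW-Sham, 10.13 in Veh-SA and 9.82 in Veh-Sham, a spread of less than 1.5-fold. Of 7 redox partners, 5 were measured (Fdx1, Cyb5a, Cyb5b, Cyb5r3 and H6pd), and all 5 were above antigenomic background on every array.

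Of the 13 measured adrenal, ovarian and peripheral steroid enzymes, 5 were above antigenomic background in GW-SA and 4 on each of the other arrays. Hsd11b1, which regenerates active glucocorticoid, had log2 values of 12.67 in GW-SA, 13.77 in GW-Sham, 13.64 in Veh-SA and 12.95 in Veh-Sham. Hsd17b12, whose product also elongates fatty acids, had 13.39, 13.83, 14.16 and 13.48 on these arrays. In GW-Sham 12 of the 43 pathway genes were at least 1.5-fold higher than in Veh-Sham, and 4 were lower. The shares of all genes were 24.3% and 15.2%. In GW-SA 2 of the 43 were higher than in GW-Sham and 13 lower, against 12.1% and 14.7% of all genes. Set against Veh-SA, 4 were higher in GW-SA and 21 lower, against 15.1% and 19.4% of all genes. With readings under the antigenomic level set to it, GW-Sham against Veh-Sham gave 11 higher and 2 lower. GW-SA then gave 2 higher and 9 lower against GW-Sham, and 2 higher and 14 lower against Veh-SA. Centring on adipocyte markers turned the deposited lower counts of 13 and 21 to 1 and 0, so the direction of the pathway on GW-SA depends on the scaling. Akr1c18, an enzyme that inactivates progesterone, kept its direction under each scaling, with 8.76 in GW-SA, 6.27 in GW-Sham, 4.45 in Veh-SA and 3.86 in Veh-Sham. Only the GW-SA reading of Akr1c18 was over antigenomic background. Sult1e1, an estrogen sulfotransferase, had 9.77 in GW-SA and 12.09 in GW-Sham, a difference of -2.33.

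Among receptors for steroids, Nr3c1, the glucocorticoid receptor, had 10.11 in Veh-SA and 8.58 in Veh-Sham, and Esr1, the estrogen receptor alpha, had 8.01 in Veh-SA and 6.53 in Veh-Sham. These differences, 1.53 and 1.48, stayed at 1.20 or more under each scaling. Of 5 measured receptors, 3 were at least 1.5-fold higher in Veh-SA and 0 lower, against 27.2% and 16.7% of all genes, and adipocyte centring left 2 higher.

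The genes with a profile most like the steroidogenic genes were found by the root mean square difference over the 4 arrays between a gene's log2 values and the median profile of the 6 genes, each centred on its own mean. The nearest 8 were Ccna1, Tcam1, Spint3, Cox7b2, Plb1, Csl, Trpd52l3 and Lca5l, at 0.05 to 0.14 log2 units. Ccna1, a cyclin of male meiosis, had 2.01 in GW-SA, 2.49 in GW-Sham, 2.68 in Veh-SA and 6.66 in Veh-Sham. Cox7b2 had 4.44, 5.16, 5.24 and 9.42 on these arrays. The median profile is an average of steep and flat genes, and no listed gene lies close to it. Hsd3b1 was the nearest, at 0.57, and Cyp17a1 the farthest, at 2.95. With 4 points, of which 1 stands above 3 lower readings, many genes share this shape, so the likeness is a description of Veh-Sham. The measure ignores level, and Plb1 read 6.35 on Veh-Sham, within antigenomic background.

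**Figure D4:**
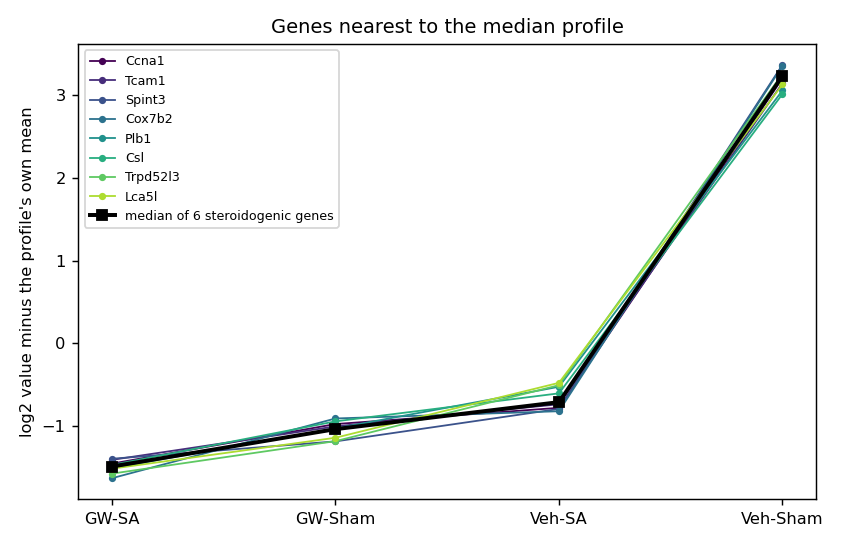
Log2 value minus the profile's own mean (vertical axis) on the GW-SA, GW-Sham, Veh-SA and Veh-Sham arrays for the 8 genes nearest to the median of the 6 steroidogenic genes (black squares). All profiles are highest on Veh-Sham and differ from the median by a root mean square of 0.05 to 0.14.

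How the bulk of genes divides between higher and lower depends on the scaling. Among the genes above the floor called in either direction for overload under vehicle, 64.2% were higher, but 83.6% with all-gene centring, 73.8% with quantile normalization and 41.5% with adipocyte centring. For GW4869 in sham mice the share was 66.7%, and 83.4% with all-gene centring. For overload under GW4869 it was 46.7%, with 34.9% and 95.1% under all-gene and adipocyte centring, and for GW4869 in overloaded mice 49.5%, with 30.1% and 97.5%. Cyp17a1, Hsd3b6 and Hsd3b1 were lower in Veh-SA and in GW-Sham than in Veh-Sham under each of these scalings, and the largest shift in the difference of Cyp17a1 for overload under vehicle was to -10.20.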

How the data were processed

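Each deposited log2 value summarises 1 probe set. The submitters' processing notes name Partek and RMA, and the sources used here give neither versions nor settings. The values reach 19.93 by a step that is not stated, so folds hold on this scale alone. The platform annotation names 19572 of 28846 rows, and 55 genes had several probe sets, of which the highest mean was kept. Groups came from the sample titles. With 1 array per group, differences of log2 values were taken with no test, and the number of arrays limits precision. Genes at least 1.5-fold apart were counted, with the counting step tested on simulated data (Python 3.11.15, pandas 2.3.3). The members and the 18 gene lists were chosen with earlier results of these data known. The genes named are the listed members, the genes of the pathway, regulator and Leydig lists, up to 4 of each other list with the largest difference for overload under vehicle, and the 8 nearest profiles; other genes named to show a background level, a range or a level in fat were chosen after their values were seen. Alternatives were all-gene and adipocyte centring, quantile normalization, 2 levels for low readings, probe set means, a 2-fold threshold and no floor. The level from antigenomic probes was added after seeing the data. Genome coordinates are those of RefSeq, GRCm38.p6, since the sources used here name no build for the probe sets.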

Additional observations from a re-analysis of the deposited data

Results flagged for a closer look

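For 6 of the 59 measured genes named in the report, the overload differences under GW4869 and under vehicle had opposite signs, were each at least 1.5-fold and involved a reading above antigenomic background in both comparisons. The difference between them was not tested, since each rests on 1 array per group. Over all 162 measured genes of the lists, 13 met this criterion, and 0 of the 6 steroidogenic genes did. Without the background condition 1 of the 6 did, Hsd17b3, between readings within background. The share over all measured genes is not given here, so nothing is read from these counts. Adam7 had 12.90 under GW4869 and -11.72 under vehicle, and Cuzd1 had 9.76 and -10.59 in that order. The lipocalins Lcn12 and Lcn5 had 10.09 and 8.91 under GW4869, and -6.90 and -11.28 under vehicle. Prm2 had 3.08 under GW4869 and -12.60 under vehicle. Its GW-Sham reading, 3.66, lay within background, and with the antigenomic level in its place the GW4869 difference was 0.40, under 1.5-fold. Hsd11b1 had -1.10 under GW4869 and 0.69 under vehicle, and with adipocyte centring these became -0.42 and 0.41, both under 1.5-fold.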

How the results depend on the processing

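No paired analysis was possible because each group has 1 array. Of 180 values of single steroidogenic genes under alternatives, 21 changed sign, 7 of them under adipocyte centring, 3 under all-gene centring, 1 under quantile normalization and 10 when readings under the antigenomic level were set to it. Of the 21, 18 were under 1.5-fold to begin with. The other 3 arose with the antigenomic level, which leaves only the difference between the levels of 2 arrays: Hsd3b6 for overload under GW4869 (0.024), and Cyp17a1 and Hsd3b6 for GW4869 in overloaded mice (0.021 each). By the same construction the median of the 6 genes was -1.54 for overload under vehicle, -1.55 for GW4869 in sham mice and 1.57 for the difference between overload differences. With the floor in place of lower values these were -3.07, -3.07 and 3.07. Adipocyte centring gave medians of 0.30 for overload under GW4869, 0.38 for GW4869 in overloaded mice and 5.09 for the difference between overload differences, against -0.38, -0.49 and 4.13. It gave 6684 and 7891 genes at least 1.5-fold apart in the first 2 of these, against 3351 and 4358. For GW-SA against GW-Sham, Veh-SA against Veh-Sham, GW-Sham against Veh-Sham and GW-SA against Veh-SA, the counts were 3351, 5509, 5075 and 4358, and became 1351, 2784, 2581 and 1866 at 2-fold and 5227, 8570, 7708 and 6725 with no floor, which change what is counted. Readings within background limit Cyp11a1, Hsd17b3 and Star on every array.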
